A study of Mus musculus with 2 samples.

Results

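Iron handling genes were described here in the optic nerve, a white matter tract in which oligodendrocytes (OLs) wrap the axons with myelin. The 10 genes were taken by name as known iron proteins, by a rule that uses no measured value but was set with earlier results of these data known. They were grouped by role into uptake (*Trf*, *Tfrc*, *Slc11a2*, and *Hfe*, whose product binds the transferrin receptor), storage (*Fth1*, *Ftl1*), export (*Slc40a1*, *Cp*) and sensing (*Ireb2*, *Aco1*). Each had 1 row in each table, out of 23951 gene symbols found in both. RNA-seq was available from 1 library of control optic nerves and 1 library of mutant optic nerves (*Tcf7l2*ΔHMG), both at P12. Control mice carried 1 floxed and 1 wild-type *Tcf7l2* allele (Tcf7l2 c/+), mutants carried the floxed allele on both chromosomes (Tcf7l2 c/c), and both carried Olig1-Cre, which is active in the OL lineage. Cre removes the exon that encodes the DNA-binding HMG box and leaves the rest of the transcript in frame, so OL lineage cells of the control also lose that exon from 1 allele. *Tcf7l2* itself stood at 17.8 FPKM in control nerves and 14.6 FPKM in mutant nerves, and this value over the whole gene does not check the deletion. The number of animals behind each library and their sex are not given in the sources used here. As each genotype had a single library, no difference below has a replicate check and no p-value is given.

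Iron travels in extracellular fluid bound to transferrin, enters cells through the transferrin receptor, leaves endosomes through a divalent metal transporter, and is stored in the shell of ferritin or exported by ferroportin with the help of a ferroxidase. OLs are the most iron-rich cells of the brain, and they are a main source of transferrin in white matter. Enzymes of cholesterol and fatty acid synthesis that supply myelin need iron or haem. Iron regulatory proteins bind a hairpin in messenger RNA, the iron-responsive element. In iron-poor cells they block translation when the hairpin lies before the coding part, and protect the transcript from decay when it lies after it.

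These hairpins are shown because their place in a transcript sets which way iron regulatory proteins act on it. GENCODE M21 transcripts were searched on the transcript strand for a C, 5 bases, the loop CAGTGN and 5 bases that pair with the first 5, with G-T pairs allowed. Among the 10 genes, 4 had such a match, and the other 6 had none, which says only that these letters are not in those transcripts. A match lay in the 5′ UTR of 0.148% of 20916 protein-coding genes and in the 3′ UTR of 0.594% of 21707. *Fth1*, *Ftl1* and *Slc40a1* had 1 match each, in the 5′ UTR, and *Tfrc* had 4, in the 3′ UTR. Capitals mark the loop, and positions are those of GRCm38. The sites lie at chr19:9982732-9982760 on the plus strand (*Fth1*), chr7:45459779-45459807 on the minus strand (*Ftl1*), chr1:45925465-45925493 on the minus strand (*Slc40a1*), and for *Tfrc*, on the plus strand, at chr16:32631219-32631247, chr16:32631598-32631626, chr16:32631663-32631691 and chr16:32631710-32631738.
Fth1: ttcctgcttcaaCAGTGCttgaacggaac
Ftl1: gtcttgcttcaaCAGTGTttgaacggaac
Slc40a1: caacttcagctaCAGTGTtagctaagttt
Tfrc, site 1: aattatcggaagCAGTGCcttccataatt
Tfrc, site 2: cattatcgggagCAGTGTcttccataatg
Tfrc, site 3: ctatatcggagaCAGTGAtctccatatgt
Tfrc, site 4: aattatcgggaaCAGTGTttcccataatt

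**Figure D1:**
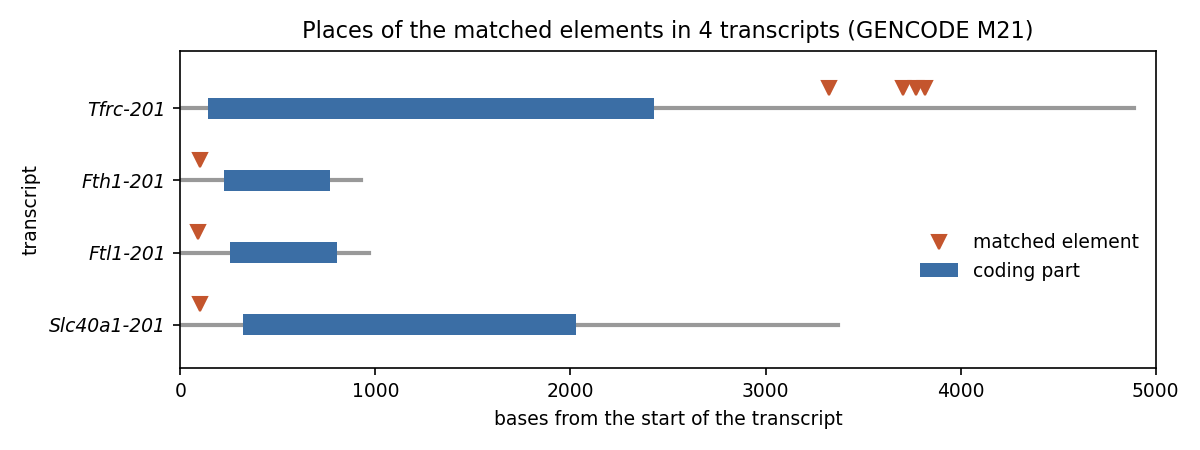
Places of the matched iron-responsive elements along 1 transcript of each of 4 genes. The x axis gives bases from the start of the transcript, the grey line the transcript, the blue bar its coding part and each triangle the loop of a match. The single match of *Fth1*, *Ftl1* and *Slc40a1* lies ahead of the coding part, at base 99, 90 and 102, and the 4 matches of *Tfrc* lie behind it, from base 3327 to base 3818.

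The levels of the 10 genes spanned 199-fold in the control. FPKM scales fragments to transcript length and library depth, so levels can be compared between genes, and Cufflinks gave each value a confidence interval that covers sampling within 1 library. With a depth of 27624000 (control) and 39938000 (mutant) fragments, these intervals spanned ±1.24% to ±11.4% of their midpoints for the 10 genes. *Fth1*, the ferritin heavy chain, was the highest at 1354 FPKM in control nerves, above 99.9% of the 14199 genes tested. *Ftl1*, the light chain, followed at 562 FPKM and *Trf*, transferrin, at 331 FPKM. *Cp* (38.8 FPKM) and *Aco1* (26.7 FPKM) came next, and *Slc40a1* was lowest at 6.79 FPKM, above 39.1% of tested genes. In between, *Tfrc* (16.2 FPKM), *Ireb2* (14.7), *Hfe* (14.6) and *Slc11a2* (12.6) lay close together. The control interval of *Hfe* (12.9 to 16.3 FPKM) overlapped those of the other three, so the place of *Hfe* among them is not resolved, whereas the intervals of *Tfrc*, *Ireb2* and *Slc11a2* were apart. In the mutant the 5 highest genes kept this order, *Hfe* moved up to overlap *Aco1*, and the interval of *Tfrc* overlapped those of *Ireb2* and *Slc11a2*.

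**Figure D2:**
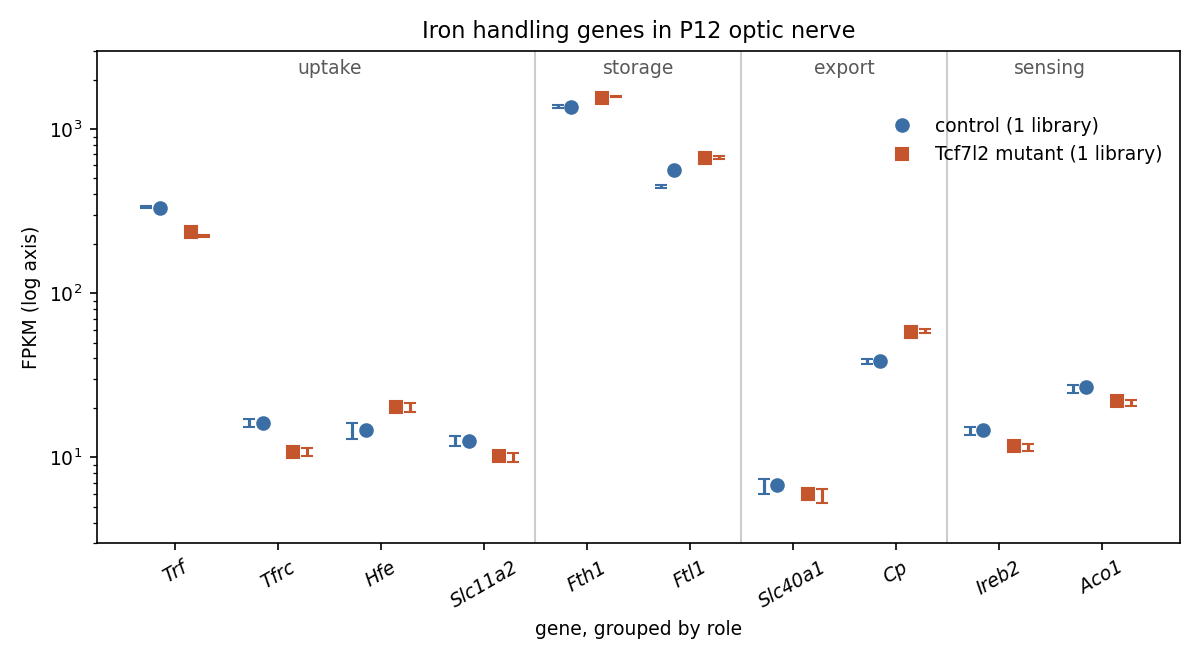
FPKM of the 10 iron handling genes, on a log axis, in the control library (circles) and the mutant library (squares), grouped by role. Bars beside each point are the Cufflinks confidence interval. *Fth1*, *Ftl1* and *Trf* stand above the other genes in both libraries, and the control point of *Ftl1* (562 FPKM) lies above its own interval of 437 to 459.

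In the mutant, 6 of the 10 genes had a lower FPKM and 4 a higher one, beside 45.4% and 54.6% of all tested genes. Log2 ratios of mutant to control were taken after a pseudocount of 0.1 was added to both, which understates the change of low genes, and a gene was counted as past the cutoff above a fold change of 1.5. Among 14199 genes with at least 1 FPKM in at least 1 library, 8.52% fell past this fold and 15.4% rose past it. Of the iron handling genes, all of which passed the filter, 1 fell past it (*Tfrc*), and 0 rose past it. Their median log2 ratio was −0.23, beside a median of 0.047 over all tested genes. The control and mutant intervals were apart for 9 of the 10 genes and for 52.4% of all tested genes, so separate intervals are common here.

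A change of scale moves all log2 ratios by nearly the same amount. It therefore leaves the position of the genes against all genes almost fixed, but can change their direction against 0. When all rows of each library were rescaled to a common sum, the median of tested genes moved by −0.65 and all 10 genes had a log2 ratio below 0. Rows without a gene name held 70.7% of all FPKM in the control library and 80.7% in the mutant library. Relative to the median of tested genes, *Trf*, *Tfrc*, *Slc11a2*, *Slc40a1*, *Ireb2* and *Aco1* were lower and *Hfe*, *Fth1*, *Ftl1* and *Cp* higher under each of the 15 alternatives run. The alternatives that change only the scale or the cutoff could hardly have altered this, so they are no check of it. Higher and lower below refer to the FPKM as deposited, and the rescaling of all rows lowers the ratios of the lists and markers below in the same way.

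Of the genes grouped under uptake, *Trf*, *Tfrc* and *Slc11a2*, whose products carry or take in iron, were lower in the mutant. *Tfrc*, the transferrin receptor that brings iron-loaded transferrin into the cell (mm9, chromosome 16 from 32608982 to 32632880), stood at 16.2 FPKM in control nerves, with an interval of 15.3 to 17.1, and at 10.7 FPKM in mutant nerves, with an interval of 10.1 to 11.3. The log2 ratio was −0.59, a fold of 1.502 that only just passed the cutoff, and 8.49% of tested genes had a lower ratio. *Tfrc* was no longer past the fold with a pseudocount of 1 or after scaling to the 75th percentile.

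*Trf*, which encodes the iron carrier itself (chromosome 9 from 103111206 to 103132616), stood at 331 FPKM in control nerves (329 to 342) and at 237 FPKM in mutant nerves (219 to 227). Its log2 ratio was −0.48, a 28.3% lower FPKM, and 11.8% of tested genes had a lower ratio. The mutant FPKM of *Trf* lay above its own interval. With the midpoints of both intervals, 335 and 223 FPKM, the log2 ratio was −0.59 and the fold 1.51, which was past the cutoff.

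*Slc11a2*, the divalent metal transporter that moves iron out of endosomes (chromosome 15 from 100218331 to 100253486), stood at 12.6 FPKM in control nerves (11.8 to 13.5) and at 10.2 FPKM in mutant nerves (9.36 to 10.7), a log2 ratio of −0.31. In contrast, *Hfe*, an MHC class I-like protein that binds the transferrin receptor and is mutated in hereditary haemochromatosis (chromosome 13 from 23795050 to 23802757), stood at 14.6 FPKM in control nerves (12.9 to 16.3) and at 20.1 FPKM in mutant nerves (18.8 to 21.5), a log2 ratio of 0.46. The mutant rows of *Hfe*, from 23794097 to 23802789, and *Slc11a2*, from 100218331 to 100254561, were longer than those of the control. The effect of this on their FPKM was not tested.

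The transcripts of both ferritin chains were higher in the mutant, except after all rows were rescaled, and protein was not measured. *Fth1*, whose product oxidises iron as it enters the shell (chromosome 19 from 10055090 to 10059601), stood at 1354 FPKM in control nerves (1353 to 1395) and at 1554 FPKM in mutant nerves, just under its interval of 1559 to 1598. The log2 ratio was 0.20, and 36.4% of tested genes had a higher one. *Ftl1*, whose product helps the iron core to form (chromosome 7 from 52713314 to 52715256), stood at 562 FPKM in control nerves and at 662 FPKM in mutant nerves (659 to 684), a log2 ratio of 0.24.

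The size of the *Ftl1* difference depended on which deposited value was used. Its control FPKM lay well above the interval of 437 to 459, and the midpoints of 448 and 671 FPKM gave a log2 ratio of 0.58, a fold of 1.497 that stayed just short of the cutoff. The ratio of heavy to light chain transcripts within a library does not depend on scaling. It was 2.41 in the control and 2.35 in the mutant from FPKM, and 3.07 and 2.35 from midpoints. Both chains have processed pseudogenes. By name, GENCODE M21 holds 5 pseudogenes of any type that begin with Fth and 2 that begin with Ftl. Copies under other names were not counted. None of these 7 has a row under its name in either table, and reads shared with such copies could not be told apart from those of *Fth1* and *Ftl1*.

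The export genes differed in direction on the deposited scale. *Cp*, ceruloplasmin, a copper ferroxidase that oxidises exported iron and is made by astrocytes in the brain (chromosome 3 from 19857054 to 19909750), stood at 38.8 FPKM in control nerves (36.9 to 39.8) and at 57.9 FPKM in mutant nerves (57.1 to 60.1). The log2 ratio of 0.58, a fold of 1.491, was the highest of the 10 and lay just under the cutoff. It passed the fold after scaling to the 75th percentile and with midpoints (0.61). *Slc40a1*, ferroportin, the iron exporter of the cell surface (chromosome 1 from 45964915 to 45982439), stood at 6.79 FPKM in control nerves (5.95 to 7.35) and at 5.98 FPKM in mutant nerves (5.29 to 6.43). Its log2 ratio was −0.18, and as the intervals overlapped, the direction for *Slc40a1* was not resolved even against sampling within each library. *Cp* was 5.71 times as high as *Slc40a1* in the control and 9.70 times as high in the mutant. The mutant row of *Cp* was longer, from 19856943 to 19909750, and the effect of this on its FPKM was not tested. The row of *Cp* overlaps that of *Hps3*, which was listed at 0 FPKM in both libraries, so fragments of the shared bases could not be assigned with certainty.

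The transcripts of both iron regulatory proteins were lower in the mutant by similar amounts, and protein was not measured. *Ireb2*, iron regulatory protein 2, which is degraded when iron is plentiful (chromosome 9 from 54711562 to 54760341), stood at 14.7 FPKM in control nerves (13.7 to 15.3) and at 11.7 FPKM in mutant nerves (10.9 to 12.1), a log2 ratio of −0.33. *Aco1*, iron regulatory protein 1, which serves as the cytosolic aconitase when it holds an iron-sulfur cluster (chromosome 4 from 40090298 to 40146042), stood at 26.7 FPKM in control nerves (24.7 to 27.4) and at 22.0 FPKM in mutant nerves (20.4 to 22.2), a log2 ratio of −0.28. Neither passed a fold of 1.5. *Aco1* was 1.82 times as high as *Ireb2* in the control and 1.89 times in the mutant.

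**Figure D3:**
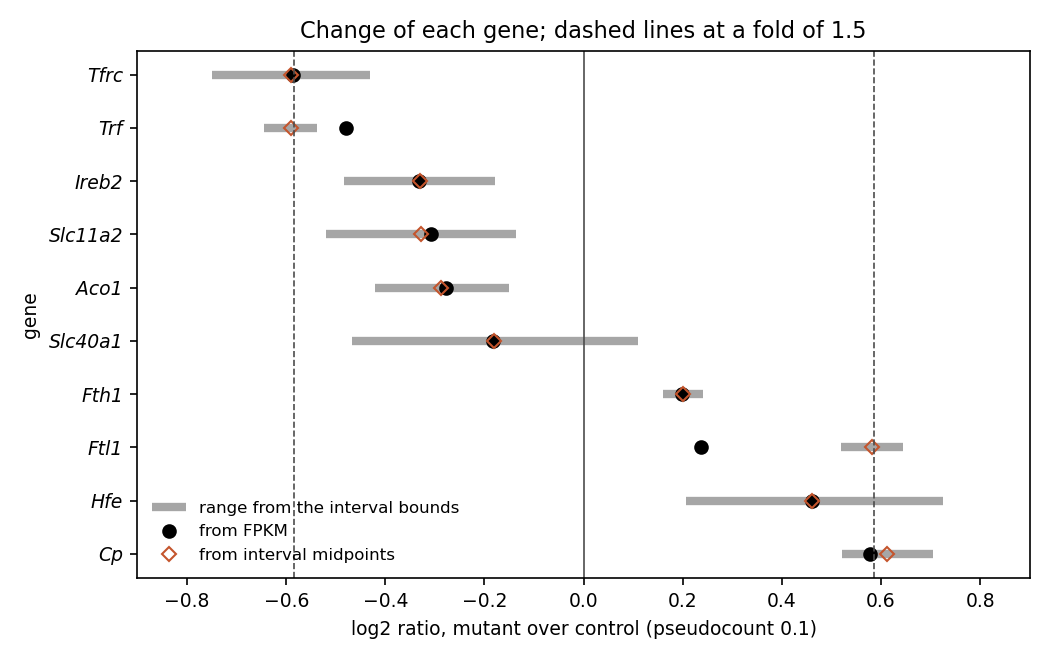
Log2 ratio of mutant to control for each of the 10 genes (pseudocount 0.1), from the deposited FPKM (circles) and from the midpoints of the Cufflinks intervals (diamonds). Grey bars run between the ratios that the interval bounds allow, and dashed lines mark a fold of 1.5. *Tfrc* and *Cp* lie next to the lines at −0.59 and 0.58, only the bar of *Slc40a1* crosses 0, and the circles of *Trf* and *Ftl1* lie outside their bars.

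With midpoints in place of FPKM, an alternative chosen after seeing the data, 2 of the 10 genes fell past the fold (*Trf* and *Tfrc*) and 1 rose past it (*Cp*), beside 9.49% and 15.8% of all tested genes. The genes with a matched hairpin did not share a direction. Of those with a 5′ match, *Fth1* and *Ftl1* were higher and *Slc40a1* was lower with overlapping intervals. *Tfrc*, with 4 matches in the 3′ UTR, was lower. A hairpin before the coding part acts on translation, which FPKM does not measure. The action of iron regulatory proteins on these genes was not tested. *Fth1* was 83.7 times as high as *Tfrc* in the control and 145 times as high in the mutant.

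A wider list of 10 transcripts known to carry an iron-responsive element holds 5 of the iron handling genes (the 4 above and *Slc11a2*, which had no match). The other listed transcripts, *Cdc42bpa* among them, were taken as known carriers, and no match is reported for them here. Of these 10 transcripts, 2 fell past the fold and 1 rose, beside 8.52% and 15.4% of all tested genes. Their median log2 ratio was 0.16. Beside *Tfrc*, *Cdc42bpa*, a kinase that acts on the cytoskeleton, fell from 27.1 to 17.3 FPKM (log2 ratio −0.64). The gene that rose was *Alas2*, the erythroid enzyme that starts haem synthesis, from 0.61 to 1.39 FPKM (1.08). Red blood cell markers, of which *Alas2* is one, moved with it. All 6 tested of 8 listed rose past the fold, on 4 rows since globin genes share rows, and their summed level was 163 FPKM (control) and 403 FPKM (mutant). The part of blood in the *Alas2* value was not tested.

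Other genes of iron transport and its regulation were spread to both sides. Of 29 symbols listed, 28 were found and 18 passed the filter on low values, with a median log2 ratio of 0.13. Of these 18, 1 fell past the fold, 4 rose and 13 did not pass it. Among all tested genes, 8.52% fell and 15.4% rose. *Hamp2*, a hepcidin gene, fell from 3.49 to 1.20 FPKM (−1.46), and reads shared with its close paralog *Hamp* could not be told apart. Bone morphogenetic protein 6 (*Bmp6*), which induces hepcidin in the liver, rose from 23.0 to 45.5 FPKM (0.98). The mutant FPKM of *Bmp6* lay above its own interval of 40.6 to 44.1, and midpoints gave a log2 ratio of 0.90. *Bdh2*, an enzyme linked to a mammalian siderophore, rose from 5.95 to 10.2 FPKM (0.76) and *Scara5*, a ferritin receptor, from 1.29 to 2.02 FPKM (0.61). The other riser was *Steap3*, which reduces iron in endosomes so that *Slc11a2* can move it, from 15.3 to 23.1 FPKM (0.59), named after its value was seen. The highest gene of the list was *Pcbp2*, an iron chaperone and RNA-binding protein, at 171 FPKM (control) and 142 FPKM (mutant) (−0.27).

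Genes of haem and of iron-sulfur clusters are given beside the 8.52% of all tested genes that fell past the fold and the 15.4% that rose. Of 20 haem genes listed, 17 were tested, of which 1 fell, 2 rose and 14 did not pass the fold, with a median of 0.15. *Cpox*, the coproporphyrinogen oxidase of haem synthesis, fell from 47.1 to 23.2 FPKM (−1.02), and beside *Alas2*, *Uros*, which closes the porphyrin ring, rose from 7.37 to 11.5 FPKM (0.64). *Slc48a1*, a haem transporter, was the highest at 107 FPKM (control) and 96.0 FPKM (mutant) (−0.16). Of 20 genes of iron-sulfur cluster assembly, all tested, 5 rose past the fold, 0 fell and 15 did not pass it, with a median of 0.054. The largest rises were those of *Fdx1*, a ferredoxin that passes electrons in mitochondria, from 9.70 to 19.2 FPKM (0.98, both above their own intervals), *Nfu1*, a carrier of finished clusters, from 21.004 to 38.4 FPKM (0.87) and *Bola3*, which helps to deliver them, from 28.02 to 50.6 FPKM (0.85). *Iscu*, the scaffold on which clusters form, and *Lyrm4*, a partner of the cysteine desulfurase, were the other 2 risers, at 0.78 and 0.63, named after their values were seen. *Hspa9*, the mitochondrial chaperone of this pathway, was the highest in the control at 66.0 FPKM, above its own interval of 60.2 to 64.9, and stood at 63.0 FPKM in mutant nerves (−0.07), where *Iscu* was higher at 96.1 FPKM.

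The cell type markers moved as well, and in bulk tissue fewer cells of a type and less RNA per cell cannot be told apart. Counts of markers past the fold stand beside 8.52% of all tested genes that fell and 15.4% that rose. Defining glial markers were present, with 4059 FPKM in the control library for *Gfap*, the astrocyte filament gene. Of 11 symbols listed as OL markers, 10 were found and tested, all of them lower in the mutant, 8 past the fold, with log2 ratios from −2.04 to −0.36 and a summed level of 15021 FPKM (control) and 6651 FPKM (mutant). *Trf*, at −0.48, and *Tfrc*, at −0.59, lay above the OL marker median of −1.07. Of 5 OL precursor markers, 4 were lower by FPKM, 1 of them past the fold (*Gpr17*, −0.59), and 1 was higher (*Ptprz1*, 0.36). The direction of 1 of these 4 was not resolved. Its mutant interval of 32.0 to 161 FPKM spanned its control interval of 35.1 to 38.0. Midpoints gave it a log2 ratio of 1.40, past the fold in the other direction. The summed level of the 5 markers was 376 FPKM (control) and 303 FPKM (mutant), of which *Gpr17* held 235 and 156 FPKM.

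Markers of most other cell types were higher on balance, on the deposited scale. Of 7 astrocyte markers, 6 were higher and 1 (*Gja1*) rose past the fold, and the summed level was 5100 FPKM (control) and 6027 FPKM (mutant). The mutant FPKM of *Gja1*, 381, lay above its own interval of 353 to 362, and midpoints gave a log2 ratio of 0.57, short of the fold. For microglia and macrophages 9 of 10 were higher, 1 (*Mrc1*) past the fold, with sums of 258 and 345 FPKM, and for meningeal fibroblasts all 5 were higher, 1 (*Dcn*) past the fold, with sums of 780 and 1096 FPKM. Endothelial markers were mixed, with 3 of 7 higher, 1 (*Cdh5*) past the fold, and sums of 173 and 158 FPKM. The part of any of these cell types in the values of *Cp*, *Hfe*, *Fth1*, *Ftl1*, *Trf* or *Tfrc* was not tested.

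**Figure D4:**
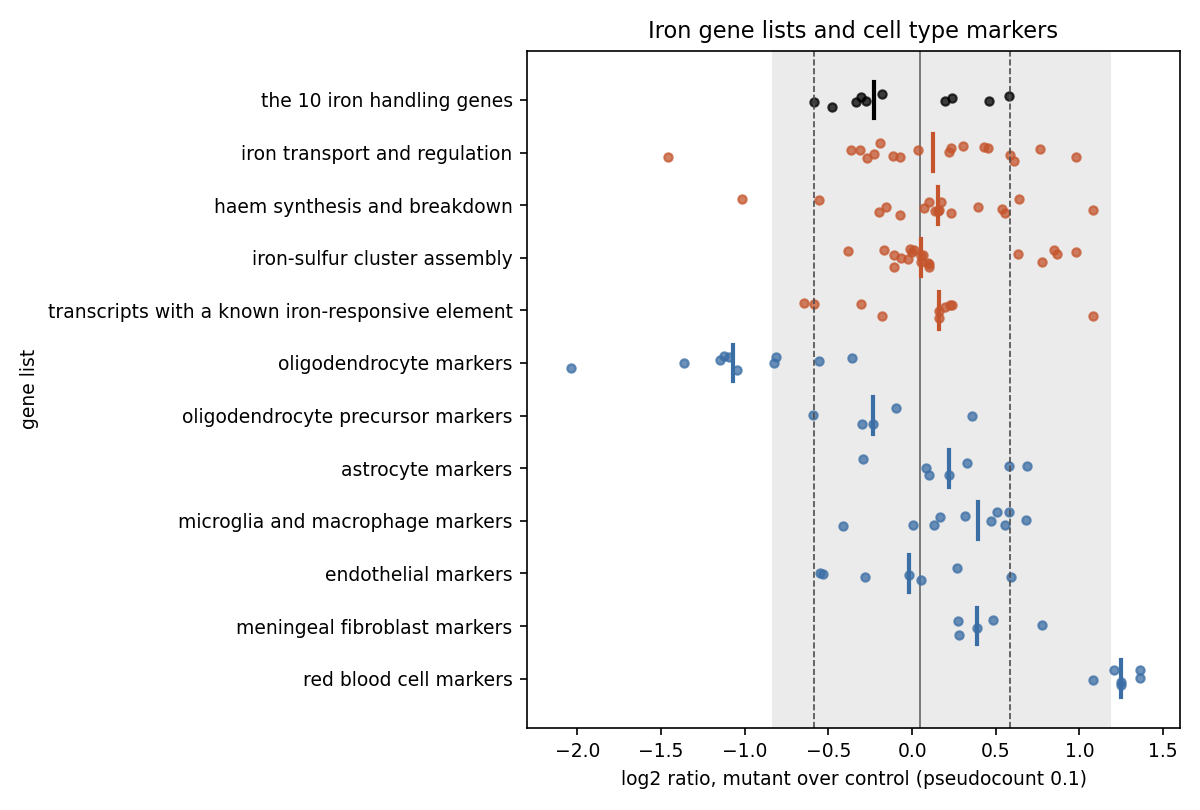
Log2 ratio of mutant to control (x axis, pseudocount 0.1) of each tested gene in the iron gene lists and the cell type marker lists (rows), with the median of each list as a vertical bar. The grey band holds 90% of all tested genes, from −0.83 to 1.18, the grey line is their median and dashed lines mark a fold of 1.5. The 10 iron handling genes lie between −0.59 and 0.58, and the OL markers between −2.04 and −0.36.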

How the data were processed

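RNA was isolated from control and mutant optic nerves at P12 (1 library each). The authors used TopHat with its defaults for mapping and Cufflinks for FPKM. The submitters' processing notes name mm9, and versions and annotation are not given in the sources used here. The deposited tables give FPKM and the bounds of its confidence interval per row. Starts were written 1 base up, since the files count from 0.

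Depth was read from the bounds of unnamed rows under 100 bases, which were whole multiples of 1 fragment within 0.0032 at a depth of 27624000 (control) and 39938000 (mutant) fragments. For a 1 kb transcript, 3 fragments then correspond to 0.109 and 0.0751 FPKM, which covers counting error only. Merged names were split and rows summed per symbol. Split names share 1 value, so some genes are counted more than once. Genes with status OK in both libraries and at least 1 FPKM in at least 1 were kept (14199, "tested"). Since there was 1 library per genotype, no statistical test was run. Counting was tested on simulated data with changes well past the cutoff, so it does not check calls next to the cutoff.

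*Tcf7l2* and all 10 genes are named. In each iron list up to 3 falls and 3 rises past the fold and the gene with the highest control FPKM are named, and up to 2 genes per marker list, of which 1 is not reported here. The genes and lists were chosen with earlier results of these data known. Hairpins come from GENCODE M21 transcripts and positions from its GRCm38 annotation, which was not joined to the mm9 rows. Python 3.11.15, numpy 2.4.6, pandas 2.3.3 and matplotlib 3.10.9 were used.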

Additional observations from a re-analysis of the deposited data

Results flagged for a closer look

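In the mutant library, 2 rows without a gene name lay within the row of *Slc11a2*, at bases where the control had no unnamed row, and they were left out of the comparisons. One of 322 bases was measured at 2.92 FPKM and one of 532 bases at 1.93 FPKM.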

How the results depend on the processing

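Of 15 alternatives, 1 was chosen after seeing the data (interval midpoints). The count of iron handling genes that fell past the fold, 1 by the values reported, was 0 with a pseudocount of 1, after scaling to the 75th percentile and with a fold change above 2, 2 with interval midpoints, and 6 after all rows were rescaled to a sum of 1000000. The count that rose, 0 as reported, was 1 after scaling to the 75th percentile and with interval midpoints. *Tfrc* and *Cp* lie next to the cutoff, at folds of 1.502 and 1.491. The median log2 ratio moved from −0.23 to −0.89 after all rows were rescaled, which also turned *Hfe* to −0.21, *Fth1* to −0.47, *Ftl1* to −0.43 and *Cp* to −0.093. In that setting 52.1% of tested genes fell past the fold and 4.51% rose. Stricter or absent filters on FPKM, rows of any status, the highest row per symbol, merged names kept whole, rescaling of named rows, centring on the median, a pseudocount of 0.01 and intervals that do not overlap left both counts as reported. Without a filter 23853 genes were compared, with 1644 that fell and 3207 that rose, beside 1210 and 2185 as reported, and with a fold change above 2 the counts were 522 and 975. Leaving out a replicate was not possible with 1 library per genotype. Depth limits *Hfe* and *Slc40a1* most, whose control intervals span ±11.4% and ±10.5% of the midpoint.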

Other observations

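Rows without a gene name also lay within 4 of the iron handling genes in the control library, 1 each in *Tfrc*, *Hfe*, *Slc11a2* and *Cp*, and at those bases the mutant had no unnamed row. Their FPKM was 11.8 (245 bases), 49.4 (143 bases), 9.03 (222 bases) and 16.6 (270 bases). Each of these values lay above its own Cufflinks interval, which ended at 5.17, 5.82, 3.91 and 7.78 FPKM. Whether fragments of the named genes were assigned to these rows was not tested.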
